A study of Mus musculus with 16 samples.

Results

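The comparison described here is that of male (XY) with female (XX) mouse kidneys when both sexes are homozygous for the recessive Kl mutation (KlKl). The genes compared were the autosomal protein-coding genes of the expression table, 17286 of its 30277 genes, taken by their annotated biotype and by lying on a chromosome other than X, Y or M. Of these, 9689 reached 0.25 scaled TPM in at least 4 of the 16 libraries and were tested. Kidneys were perfused, dissected and flash frozen, and polyadenylated RNA was sequenced with a directional library kit. All mice were congenic on C57BL/6J. The 4 male KlKl mice were 47, 49, 46 and 59 days old (replicates 1 to 4), the 4 female KlKl mice 47, 47, 48 and 52 days, and each library is labelled as a mouse of its own. The labels describe the KlKl mice as affected by renal failure. The 4 male and 4 female controls had healthy renal function, of which male controls 3 and 4 were wild type and the other 6 heterozygous, and they served as a second sex comparison.

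Kl encodes klotho, a membrane protein of the renal tubule that serves as co-receptor for FGF23, the bone hormone that lowers phosphate reabsorption and active vitamin D. The recessive allele lowers the expression of the gene, and mice homozygous for it develop high phosphate and vitamin D, soft-tissue calcification and small gonads. The mouse kidney is among the organs with the widest sex differences in gene expression: androgen acting on its receptor in the proximal tubule, the segment that reabsorbs most of the filtrate and secretes drugs and organic ions, raises a set of transporters and enzymes in males.

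The libraries have limits that touch every result. In the library names, the numbers 17 to 24 after the letter S occur once among males and once among females. Each sex thus forms a complete numbered set, but what the numbers stand for is not given in the labels. Male KlKl libraries held 13030829 to 17445305 recovered reads and female ones 10999952 to 12390963, with mitochondrial shares of reads of 9.71% to 14.1% and 14.3% to 17.4%, without overlap in either measure. Sex, numbered set and depth therefore cannot be told apart. Xist stood at 11.2 to 16.7 scaled TPM in female and 0.108 to 0.412 in male KlKl kidneys, and the labelled sexes held in all 16 libraries. Tubule markers were abundant, with Umod at 82.3 to 151 and Slc34a1 at 115 to 153. Male KlKl 3 stood apart from the other males in many genes, so the total counts and those of many gene lists are also given without it. Female control 3, part of the same fit, held the fewest recovered reads (8209618) and stood apart from the other female controls. Leaving it out raised the genes called in KlKl kidneys from 1391 to 1950 higher and from 1219 to 1733 lower in males. In whole tissue, fewer cells of a type and less RNA per cell cannot be told apart.

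Of the 9689 genes tested, 2610 (26.9%) differed between the sexes at an adjusted p under 0.05 (limma): 1391 (14.4%) were higher and 1219 (12.6%) lower in males. Most differences were small, with medians of 0.53 and −0.58 on the log2 scale among the called genes. In all, 185 genes were higher and 119 lower by at least 1 (a doubling), and 32 and 8 by at least 2. The 4 male and 4 female libraries did not overlap for 1727 genes (17.8%) with all males above and 1540 (15.9%) with all males below. Without male KlKl 3, 1633 (17%) of the 9586 genes then tested were higher and 1254 (13.1%) lower, of which 1244 and 1028 were among those called with all libraries. The median over all tested genes was 0.00, since the libraries are scaled to a common median; with the deposited TPM unscaled it was 0.43, and differences below are relative to the common median.

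**Figure D1:**
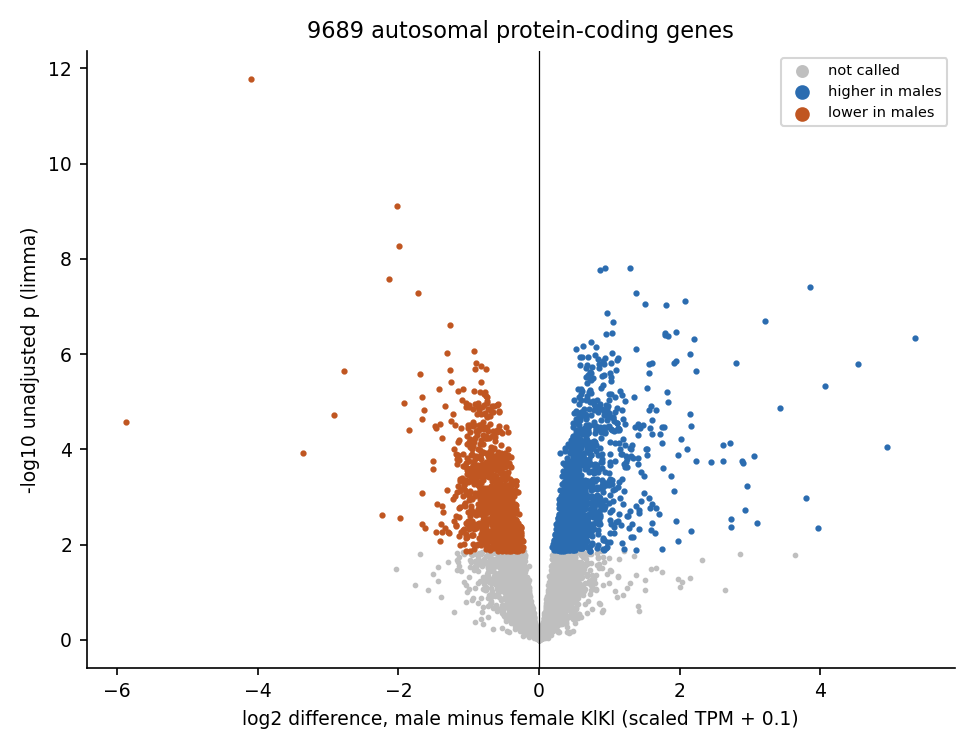
Each point is 1 of the 9689 tested genes, by its log2 difference between male and female KlKl kidneys (x axis, log2 of scaled TPM + 0.1) and −log10 of limma's unadjusted p (y axis). Blue marks the 1391 genes higher and orange the 1219 lower in males; differences beyond 3 are more numerous on the male side (11 against 3).

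The genes that led the male side were proximal tubule transporters and metabolic enzymes. Slc7a13 (chr4:19818725-19842218, plus strand, mm39), an aspartate, glutamate and cystine transporter of the last proximal segment, was at 32.3, 17, 3.14 and 32.4 scaled TPM in male KlKl 1 to 4 and at 0.299, 0.119, 0.230 and 0.629 in the females. All 4 males lay above all females, and male 3 lay between. The difference was 5.35 ± 0.615 (log2, SE; adjusted p = 0.000135). Cyp4b1, a cytochrome P450 of fatty acids and foreign compounds (chr4:115481922-115504920, minus strand), was at 103, 61.2, 7.75 and 83.6 in males and 1.47 to 2.28 in females, a difference of 4.54 (adjusted p = 0.000243). Acsm3, a mitochondrial medium-chain acyl-CoA synthetase (chr7:119360146-119386736, plus strand), was at 17, 15, 0.228 and 12.1 in males and 0.0644 to 0.130 in females (4.95, adjusted p = 0.0021). Male 3 was the lowest male for Cyp4b1 and Acsm3 as well, and for Acsm3 it was just above the highest female. Without it the differences were 6.10 for Slc7a13, 5.38 for Cyp4b1 and 6.30 for Acsm3.

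Cyp2e1, the ethanol- and acetone-oxidising P450 (chr7:140343652-140354900, plus strand), behaved differently in male 3. It stood at 40.3, 34.9, 39.4 and 44.3 scaled TPM in males against 4.75, 3.78, 7.35 and 2.30 in females, and male 3 was level with the other males. The difference was 3.21 ± 0.345 (adjusted p = 9.09e-05), and 3.22 without male 3. Nat8f5, of the N-acetyltransferase 8 family, showed the same order, at 6.48 to 11.5 in males (7.78 in male 3) and 0.543 to 3.00 in females (2.62, adjusted p = 0.00313); it shares its strand and position with Nat8f6, so the split of reads between them is uncertain.

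**Figure D2:**
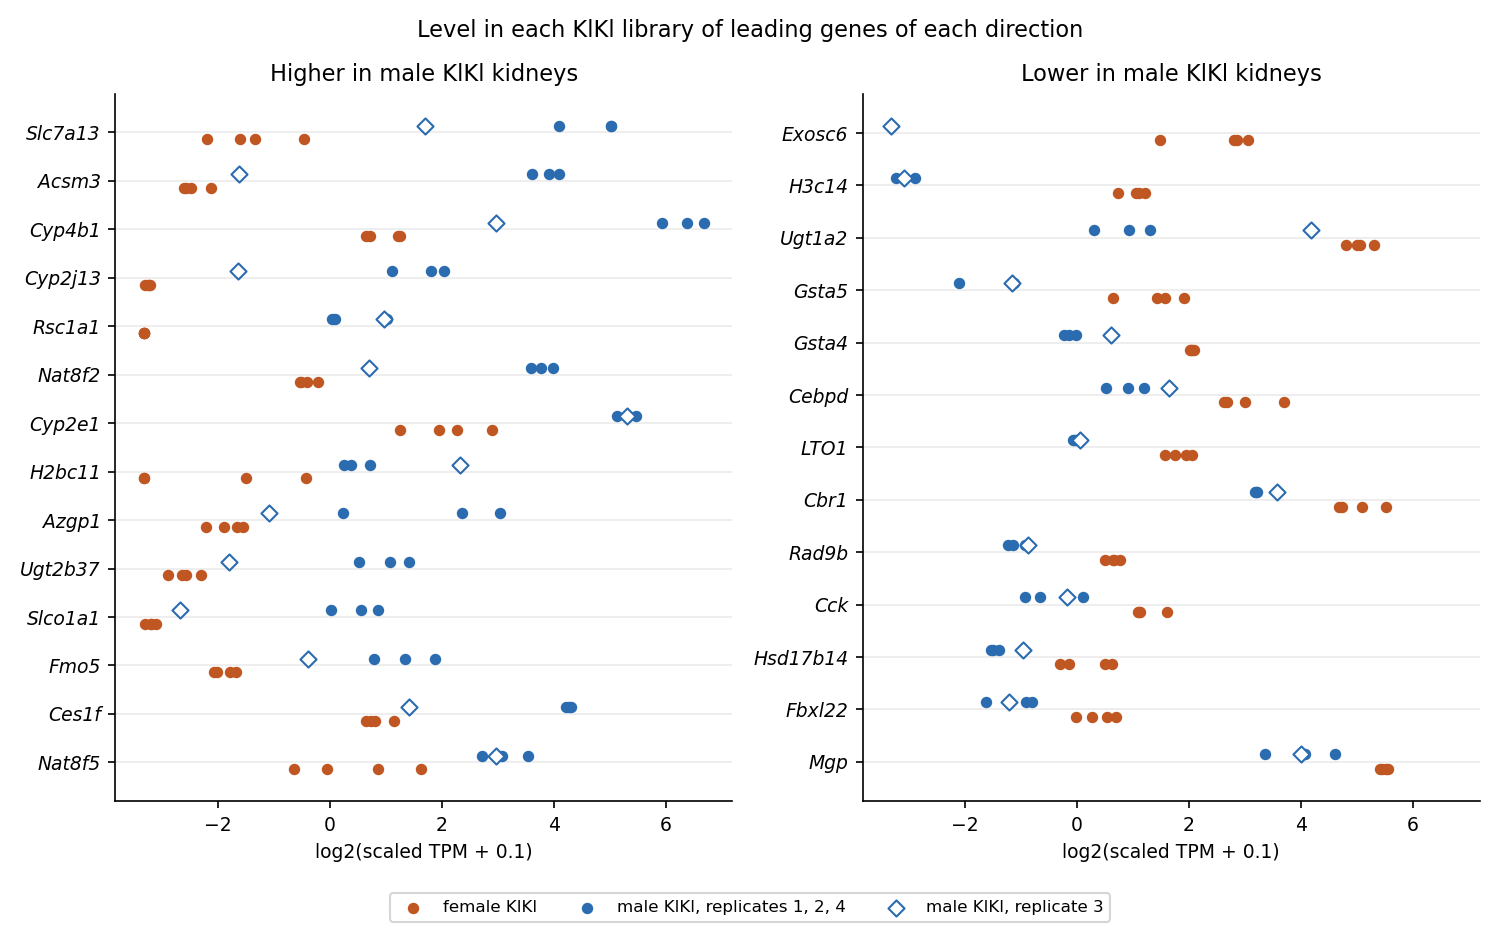
Level of leading genes of each direction in each KlKl library, as log2(scaled TPM + 0.1) on the x axis, with females in orange, males 1, 2 and 4 as blue points and male 3 as an open diamond. Male 3 lies between the sexes for Acsm3, Cyp4b1, Nat8f2 and Ces1f and with the other males for Cyp2e1, Nat8f5 and Mgp.

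The other leading male genes included further enzymes and transporters, a histone gene and a secreted protein gene. Nat8f2 was at 13.5, 11.9, 1.54 and 15.7 scaled TPM in males and 0.597 to 0.772 in females (3.42, adjusted p = 0.000751). The carboxylesterase Ces1f was at 19.2, 18.5, 2.56 and 19.6 against 1.47 to 2.11 (2.72). Cyp2j13, a P450 of the arachidonic acid-metabolising family, was at 4.01, 2.07, 0.220 and 3.41, and at 0.00816 or less in females (4.07, adjusted p = 0.000416), where it rested on 1 to 6 reads a library. In each of these genes male 3 was the lowest male. Ugt2b37, a glucuronosyltransferase, differed by 2.91, the organic anion transporter Slco1a1 by 2.89, the flavin monooxygenase Fmo5 by 2.80 and the zinc-alpha-2-glycoprotein gene Azgp1 by 2.96. Male 3 held 0.0579 scaled TPM of Slco1a1 against 0.917 to 1.73 in the other males and at most 0.0161 in females. The histone gene H2bc11 (3.06) rested on 10 to 44 reads in males and 0 to 4 in females. Cyp, Ugt, Ces and Nat8 genes have close paralogs, among which reads may be split.

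Rsc1a1, an intronless gene for a regulator of sodium-glucose transport, was all or none: 30 to 69 reads in male KlKl and 17 to 70 in male control kidneys, and 0 in all 8 female libraries. Against a floor of 3 reads per library it was at least 12.4-fold higher in males. The gene lies inside Ddi2 on the same strand, and Ddi2 differed by 0.49. Exosc6, a subunit of the RNA exosome, was the reverse: 0 reads in the 4 male KlKl libraries and 54 to 153 in the female ones (2.71 to 8.18 scaled TPM), at least 55-fold lower in males against the same floor. Exosc6 lies inside Aars on the same strand, and Aars had a difference of 0.28 (adjusted p = 0.295). The histone gene H3c14 had 0 or 1 read per male and 43 to 59 per female KlKl library (−4.10 ± 0.183, adjusted p = 5.89e-09). H3c14 overlaps the lncRNA gene Gm20634 on the same strand, which went the other way. Gm20634 was at a mean of 2.13 scaled TPM in male and 0.816 in female KlKl kidneys (1.29), so the split of reads between them is uncertain. Over all 16 libraries, Rsc1a1 alone was near 0 reads in every library of 1 sex and well above 0 in every library of the other. Exosc6 split the same way by sex in the controls, except that female control 1 had 0.00184 scaled TPM, against 2.85 to 7.47 in the other female controls. For H3c14, at least 1 control library did not keep so sharp a split. Whether the libraries of both sexes were counted with the same annotation is not given in the sources used here, so these folds hold for the deposited values and may not be differences in RNA. The cause of these near all-or-none values was not tested.

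On the female side the leading gene with ample reads was Ugt1a2, a glucuronosyltransferase of the UGT1A cluster (chr1:88128323-88146719, plus strand). It was at 2.38, 1.13, 18 and 1.81 scaled TPM in males and 39.5, 27.9, 33.3 and 31.8 in females, a difference of −3.36 (adjusted p = 0.0025), and −4.19 without male 3. Male 3 lay nearer the females than the other males. Its neighbour Ugt1a7c went the other way, at 2.71, 2.47, 0.660 and 2.71 in males and 0.168 to 0.343 in females (2.45, adjusted p = 0.00317). The genes of this cluster share their last exons and strand, and how reads were divided among them is uncertain.

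Of the tested glutathione transferases of the alpha class, Gsta2, Gsta4 and Gsta5 were lower in males, and Gsta3 had a difference of 0.24 that did not pass (adjusted p = 0.43). Gsta4, which detoxifies lipid peroxidation aldehydes, was at 0.890, 0.749, 1.42 and 0.806 scaled TPM in males and 4.14, 4.08, 3.95 and 4.01 in females (−2.0 ± 0.162, adjusted p = 7.71e-06). The females were nearly level and male 3 was the highest male. Gsta5 was at 0.132 to 0.359 against 1.46 to 3.67 (−2.77), and Gsta2 at 5.68, 6.04, 8.30 and 5.90 against 14.6 to 20.6 (−1.42). Cbr1, a carbonyl reductase, was at 8.91 to 11.8 against 25.6 to 45.7 (−1.72). Cebpd, a transcription factor of acute-phase responses, was at 1.34 to 3.04 against 6.07 to 12.9 (−1.93). Also lower were the hormone gene Cck (−1.64), the hydroxysteroid dehydrogenase Hsd17b14 (−1.51), Fbxl22 (−1.51) and Mgp (−1.48). None of these overlapped between the sexes.

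In LTO1 and Rad9b the difference stood opposite to that of a gene on the other strand. LTO1 (−1.85) overlaps Ccnd1, which differed by 0.92, and Rad9b (−1.69) overlaps Pptc7, which differed by 1.00. The kit keeps strand, but the strand setting of the counting is not given in the sources used here, so both genes are uncertain. Of all tested genes 4436 (45.8%) overlap another gene, and of the 14 named lower genes 8 do.

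The stretches upstream of Cyp4b1, Acsm3, Ugt1a2 and Kl, picked after their values were seen, are shown because androgen-driven genes are often searched for the hexamer that androgen and glucocorticoid receptors bind. They are the 250 bases before the start in RefSeq (GRCm38.p6, whose coordinates differ from those of mm39 above), printed on the strand of the gene with the hexamer (AGAACA or TGTTCT) in capitals. Cyp4b1 lies at chr4:115647722-115647971 (minus strand) with the hexamer 248 bases before its start, Acsm3 at chr7:119760673-119760922, Ugt1a2 at chr1:88200361-88200610 and Kl at chr5:150952357-150952606 (plus strand), with the hexamer 111 bases before its start.
Cyp4b1: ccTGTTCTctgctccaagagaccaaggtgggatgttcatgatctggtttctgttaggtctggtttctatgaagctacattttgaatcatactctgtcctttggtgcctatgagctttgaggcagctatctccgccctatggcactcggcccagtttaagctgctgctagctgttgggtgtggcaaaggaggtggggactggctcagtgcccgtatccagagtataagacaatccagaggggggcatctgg
Acsm3: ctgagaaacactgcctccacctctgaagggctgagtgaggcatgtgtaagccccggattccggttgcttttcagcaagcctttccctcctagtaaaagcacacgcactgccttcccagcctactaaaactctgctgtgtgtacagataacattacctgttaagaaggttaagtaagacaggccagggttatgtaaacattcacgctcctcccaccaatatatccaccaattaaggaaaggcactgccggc
Ugt1a2: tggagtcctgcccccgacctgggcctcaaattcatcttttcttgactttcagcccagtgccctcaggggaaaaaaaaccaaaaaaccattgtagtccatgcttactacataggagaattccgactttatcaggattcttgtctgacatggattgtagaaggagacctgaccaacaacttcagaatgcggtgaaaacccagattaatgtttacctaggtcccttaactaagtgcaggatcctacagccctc
Kl: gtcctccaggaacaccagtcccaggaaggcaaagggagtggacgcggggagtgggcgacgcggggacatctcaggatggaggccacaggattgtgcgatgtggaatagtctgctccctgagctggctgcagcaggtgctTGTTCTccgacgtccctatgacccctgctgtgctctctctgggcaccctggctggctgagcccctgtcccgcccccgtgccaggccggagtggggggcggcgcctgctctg
The hexamer occurred on either strand in 16.1% of all 32851 promoters of this length and in 10.8% of those of the tested genes, beside 9.89% of those of genes higher and 10.8% of those of genes lower in males, and in 1 of 13 promoters of the named higher genes. The stretches of Acsm3 and Ugt1a2 hold none, which says only that these letters are not in this window.

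Genes known as androgen-responsive or male-biased in the kidney were higher in male KlKl kidneys in 20 of 29 tested members and lower in 0, with a median of 1.61, beside 14.4% higher and a median of 0.00 over all tested genes. Without male KlKl 3, 25 of 29 were called and the median was 1.82. Of the members not described above, the urate transporter gene Slc22a12 was at 121, 101, 52.7 and 119 scaled TPM in males and 25.6 to 32.7 in females (1.66, adjusted p = 0.000788). Nat8 was at 78.1 to 115 against 19.3 to 48.3 (1.72). By limma voom on recovered reads 22 passed as higher and 1 as lower. That fit had another filter, with 13579 genes tested, so its members may not be the same 29. Kap and Odc1 passed only without male 3. Kap, the kidney androgen-regulated protein, was at 5156, 3598, 528 and 3644 in males and 1931, 1807, 1243 and 768 in females, so that male 3 was below all females; its difference was 0.86 (adjusted p = 0.294), and 1.59 (adjusted p = 0.00874) without that library. Odc1, the rate-limiting enzyme of polyamine synthesis, was at 73.7, 69.1, 16 and 35.3 against 17 to 27.2 (0.96, adjusted p = 0.109; 1.42, adjusted p = 0.0103). The members of this list were picked for a known sex bias in healthy kidneys, so their direction is not independent evidence.

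The female-biased list did not mirror it: of 21 tested members 3 were lower in males (Slc22a29, Abcc3 and Aadat), 3 higher (Fmo5, Cndp2 and Gstt3), and the median was −0.14 (0.27 on unscaled TPM). Slc22a29, of the organic anion transporter family, was at 0.0996, 0.159, 0.173 and 0.0881 scaled TPM in males and 0.692 to 0.895 in females (−2.02, adjusted p = 1.36e-06). Abcc3, an efflux pump of conjugated bile acids and drugs, was at 0.0536, 0.0348, 0.268 and 0.0449 against 0.310 to 0.740 (−1.66). Prlr, the prolactin receptor, was at 0.538, 0.457, 1.22 and 0.961 in males and 1.08 to 1.53 in females (−0.72, adjusted p = 0.122). Slc7a12 had a difference of 0.14 (adjusted p = 0.807), with 0.897 to 2.09 in males and 0.972 to 1.42 in females. In the controls 9 of the 21 members were lower in males and 2 higher.

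The counts of the gene lists that follow stand beside 14.4% of all tested genes higher, 12.6% lower and a median of 0.00. Among 17 hormone receptor and signalling genes, 7 were higher and 1 lower (median 0.28), and 6 and 0 without male 3 (median 0.06). The higher ones included Hnf4a, a proximal tubule transcription factor, at 7.38 to 7.92 scaled TPM in males and 4.05 to 5.48 in females (0.71, adjusted p = 0.00198). Hsd17b11, which oxidises androgen metabolites, was at 3.63 to 4.50 against 1.52 to 1.85 (1.22), and Srd5a1, which makes dihydrotestosterone, differed by 0.47. Ghr, the growth hormone receptor, was at 2.23, 1.86, 0.818 and 2.07 against 0.842 to 1.08 (0.72, adjusted p = 0.0422), with male 3 below every female. Igfbp3, an IGF-binding protein, was lower (−0.69, adjusted p = 0.0301; adjusted p = 0.0656 without male 3). The glucocorticoid receptor gene Nr3c1 differed by −0.01.

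Of 28 tested transporters of organic ions and urate 11 were higher and 2 lower (median 0.48), and 14 and 2 without male 3 (median 0.71). Slc22a6, the basolateral organic anion transporter OAT1, was at 47.6, 50.6, 22.1 and 48.5 scaled TPM in males and 9.32 to 19.2 in females (1.54, adjusted p = 0.00261). Abcc2, the apical efflux pump MRP2, was at 2.80 to 3.99 against 1.51 to 1.83 (1.08). Slc22a2, the organic cation transporter OCT2, was at 4.62, 4.06, 1.53 and 4.71 against 1.31 to 2.27 (0.91, adjusted p = 0.0349). The related Slc22a30, Slc22a28 and Slc22a26 differed by 2.61, 1.93 and 1.97, and in all of them male 3 was far below the other males. Slc22a8 (OAT3), at 14.2 to 23.2 against 11.6 to 13.5, had a difference of 0.61 that did not pass (adjusted p = 0.106). Of 19 genes of amino acid transporters and related carriers 4 were higher and 0 lower: Slc7a13, Slc16a9 of the Slc16 carrier family (1.12), Slc3a1 (0.41) and Slc1a1 (0.39).

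Cytochrome P450 genes were higher in 10 of 27 tested members and lower in 1 (median 0.68), and in 11 and 4 without male 3 (median 0.81). Besides those above, Cyp2d9, a male-typical steroid hydroxylase, was at 4.89, 3.50, 2.93 and 6.16 scaled TPM in males and 0.585 to 1.31 in females (2.17, adjusted p = 0.00118). Cyp7b1, an oxysterol hydroxylase, differed by 1.43, Cyp2j5 by 0.70, and Por, the reductase that supplies electrons to these enzymes, by 0.61. In Cyp2a5 male 3 was the highest male, at 46.9 against 8.97 to 25.1 in the others and 3.63 to 7.67 in females (1.74, adjusted p = 0.0466; 1.28, adjusted p = 0.118 without it). Cyp2u1 was lower (−0.53), and without male 3 Cyp2d22, Cyp2d26 and Cyp4a14 were lower too. Conjugating enzymes were split, with 11 of 34 higher and 6 lower (median 0.29), and 15 and 6 without male 3 (median 0.35). Among the higher ones were Ces1g (6.63, 2.39, 0.0075 and 5.09 in males, 0.0153 to 0.0331 in females), Ces2c (2.23), Ugt2b38 (3.10) and Ugt8a (2.15); the lower ones were Ugt1a2, Gsta4, Gsta2, Mgst3 (−0.67), Gstk1 (−0.53) and Sult1c2 (−0.43). Male 3 lay below every female for Ces1g, so that the 2 sexes overlapped.

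Kl transcripts, low in all KlKl kidneys, were higher in males: 1.08, 0.726, 0.179 and 1.03 scaled TPM in male KlKl 1 to 4 against 0.199, 0.0858, 0.0758 and 0.267 in females (chr5:150876072-150917282, plus strand). Male 3 lay within the female range and the other 3 above it. The difference was 1.61 ± 0.407 (adjusted p = 0.0112), 2.07 without male 3, and 1.31 between male (8.02 to 10.7) and female (2.70 to 6.42) controls.

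Of 22 genes of vitamin D, phosphate and calcium handling 5 were higher and 2 lower (median 0.22), and 8 and 0 without male 3. Cyp24a1, which inactivates vitamin D, was at 56.1, 53.3, 3.11 and 44.3 scaled TPM in males and 6.85, 8.76, 7.85 and 13.1 in females. The 3 other males were well above all females and male 3 below them; the difference was 1.51 (adjusted p = 0.133), and 2.51 (adjusted p = 0.000527) without male 3. Cyp27b1, which makes the active hormone, was at 4.43, 3.61, 9.66 and 3.24 against 1.08 to 3.04, all males above all females, with male 3 the highest (1.35, adjusted p = 0.0585). Vdr, the vitamin D receptor, was at 3.98, 4.05, 1.99 and 3.50 against 2.02 to 2.39 (0.50, adjusted p = 0.0535; 0.73, adjusted p = 0.000733). Rxra, its partner, was higher (0.65), as were the phosphate carrier Slc20a2 (0.49), the calcium channel Trpv5 (0.50) and the calcium-sensing receptor Casr (0.86). Slc34a1, the main phosphate transporter of the proximal tubule, was at 115 to 132 against 139 to 153 (−0.21, adjusted p = 0.303), and Slc34a3, its relative, was lower (−0.58, adjusted p = 0.0405; adjusted p = 0.0933 without male 3), as was Cldn16 of paracellular calcium and magnesium transport (−0.45).

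Of 5 tested mineralisation genes 2 were lower in males and 0 higher, with a median of −0.20 (0.27 on unscaled TPM, where 1 was lower and 1 higher). Mgp, the matrix Gla protein that restrains vascular calcification, was at 10.2, 24.2, 15.8 and 16.6 scaled TPM in males and 43.6, 45.8, 42.3 and 46.7 in females (−1.48 ± 0.247, adjusted p = 0.00118). Spp1, osteopontin, which binds calcium crystals and is also raised in injured tubules, was at 138, 182, 183 and 109 against 272 to 346 (−1.0, adjusted p = 0.00185). Neither gene overlapped between the sexes. The other 3 tested members of that list, Alpl, Enpp1 and Bmp7, differed by −0.20, −0.09 and 0.02 and did not pass.

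Genes of peroxisomal and mitochondrial fatty acid oxidation were higher in males in 10 of 27 members and lower in 0 (median 0.33). Without male 3, 12 were higher and 1 lower (median 0.46). Crot, which exports medium-chain acyl groups from peroxisomes, differed by 1.56, the thioesterase Acot12 by 1.41, Ehhadh by 1.26 and Cpt1a, the gate of mitochondrial import, by 0.96 (3.78 to 4.62 against 1.72 to 2.45). Ppara, the receptor that drives these genes, differed by 0.82 (adjusted p = 0.0147). Cyp4a14, a classical PPARA target, was at 4.94, 14.2, 40.6 and 6.05 in males and 17.9 to 29.2 in females (−1.02, adjusted p = 0.201), and was lower without male 3 (−1.63, adjusted p = 0.022). Of 25 genes of gluconeogenesis, ammonia and carbonyl metabolism 8 were higher and 1 lower (median 0.22): G6pc by 1.22, Pcx by 1.05 and Pck1 by 1.00 were among the higher ones. Without male 3, 11 were higher and 1 lower (median 0.37). Pck1 was at 281, 432, 220 and 285 in males and 114 to 198 in females.

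In sterol and fatty acid synthesis 3 of 25 genes were higher and 3 lower (median 0.25), and 7 and 3 without male 3. With all libraries these shares were close to those over all tested genes (14.4% and 12.6%). Fdps, of the early isoprenoid steps, was lower (−0.84), as was Elovl6, which elongates fatty acids (−0.85). Of 13 targets of the oxidative stress factor NRF2, Nqo1 (0.91) and Txnrd1 (0.89) were higher and Gsta4 lower (median 0.51), and 5 were higher without male 3. In polyamine metabolism Azin1 (0.58) and Oaz2 (0.43) were the members of 10 that passed. Of 26 genes of the renin-angiotensin system and salt transport 5 were higher and 1 lower: Ace, the angiotensin-converting enzyme, was at 5.54, 7.83, 2.28 and 5.22 against 1.40 to 1.74 (1.58, adjusted p = 0.00122), and Ren1, the renin gene, at 2.29 to 4.18 against 3.49 to 16.8 (−1.30, adjusted p = 0.0729).

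Interferon-response genes were lower in males in 10 of 20 tested members and higher in 0, with a median of −0.56 (−0.13 on unscaled TPM, where 2 were lower), beside 12.6% lower over all tested genes. All 20 differences were below 0. Psmb8, a subunit of the immunoproteasome, was at 1.92, 2.40, 1.83 and 1.94 scaled TPM in males and 5.15, 3.92, 3.76 and 3.14 in females (−0.93, adjusted p = 0.00477). Stat2, a transcription factor of interferon signalling, was at 0.550 to 0.623 against 0.852 to 1.19 (−0.68), and Ifit1, which binds foreign RNA, at 0.350 to 0.776 against 1.20 to 2.49 (−1.31). Irf1 (−0.58), Irf9 (−0.53), Bst2 (−0.73), Ifi27 (−0.59), Psmb9 (−0.82), Isg15 (−1.04) and Gbp3 (−1.38) made up the rest. Without male 3, 9 were lower, and the controls gave 11 lower and 0 higher.

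Of 17 genes of tubule injury and repair 6 were lower and 0 higher (median −0.25, or 0.22 on unscaled TPM, where 3 were higher). Among the lower ones were Spp1, the intermediate filament gene Vim (3.23 to 4.59 against 6.24 to 7 scaled TPM), the calcium-binding S100a6 (−1.05), Anxa2 (−0.43) and Anxa3 (−0.40). Lcn2, which encodes the injury marker NGAL, was at 0.886, 1.46, 3.56 and 0.675 in males and 1.27 to 2.01 in females, with male 3 the highest library (−0.20, adjusted p = 0.74). With the transcript-length adjustment below, 3 of the 17 were lower. Complement genes had 5 of 14 lower and 2 higher (median −0.47). On unscaled TPM 1 was lower, 3 were higher and the median was −0.01. On recovered reads the median was −0.01 with 6 lower and 2 higher. The fit on reads had another filter, with 13579 genes tested, so its complement members may not be the same 14. With scaling, Serping1, C1ra, C1s1 and Cd59a were among the lower ones, and Cfb (27.6 to 43.5 against 16.4 to 20.7, 1.01, adjusted p = 0.000291) and Cd55 (0.63) were higher. C3 was at 0.719, 1.61, 6.29 and 0.523 in males and 0.709 to 1.81 in females, male 3 again the highest (0.52, adjusted p = 0.503).

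Few stress, rhythm and cell cycle genes passed. Of 15 immediate early genes 3 were lower (Ier3 −1.14, Nr4a1 −1.03 and Klf6 −0.53; median −0.18, or 0.27 on unscaled TPM). Of 16 heat shock and unfolded protein genes 2 were higher (Xbp1 0.60 and Pdia4 0.53) and 2 lower (Hspb1 −0.81 and Atf4 −0.48). Of 15 clock genes Bhlhe40 (1.00) and Hlf (0.57) were higher and Nfil3 (−0.78) lower, and of 9 cell cycle genes Ccnd1 (0.92) was higher, which it was not without male 3 (0.64, adjusted p = 0.122).

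Nuclear genes of oxidative phosphorylation were lower in males in 10 of 23 members and higher in 1, with a median of −0.36; on unscaled TPM the sign flipped, with 7 higher, 0 lower and a median of 0.11. Cox5b was at 73.7, 80.6, 65.0 and 79.4 scaled TPM in males and 112 to 136 in females (−0.70, adjusted p = 0.000898), whereas Ndufs1 was higher (0.40). These genes have short transcripts (median 815 bases), and the sex difference followed transcript length across the whole table. In the shortest of 10 equal bins of tested genes (739 bases or less) 27.2% were lower, 8.50% higher and the median was −0.21. In the longest bin (4516 bases or more) 4.77% were lower, 26.1% higher and the median was 0.17. Spearman's rho between length and difference over 9648 genes, which share the same 8 libraries, was 0.29, and the control sexes gave the same pattern, from −0.23 to 0.17. After a length adjustment chosen after seeing the data, 1267 genes (13.1%) were higher and 1038 (10.7%) lower, and 8 oxidative phosphorylation genes were lower (median −0.17). The part of RNA quality in this trend was not tested.

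**Figure D3:**
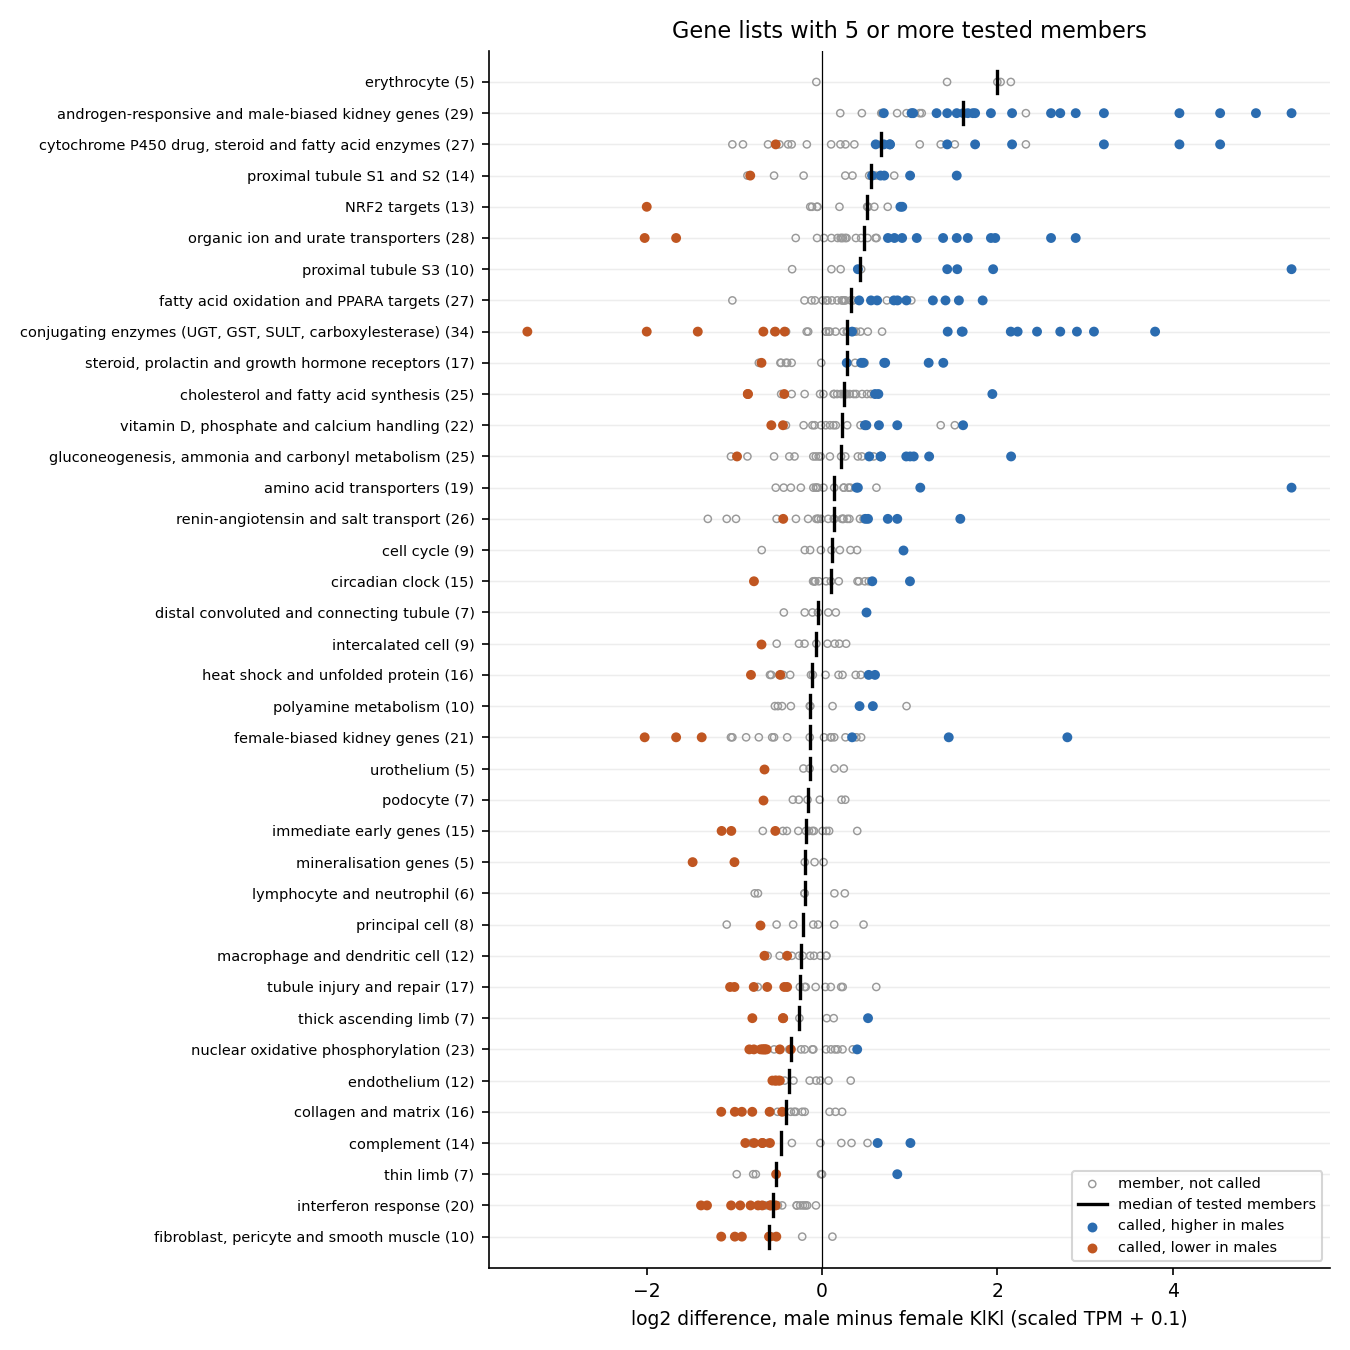
Log2 difference between male and female KlKl kidneys (x axis) of every tested member of the lists with 5 or more of them, with the number tested in brackets; filled points passed, open points did not, and the black bar is the median. The androgen-responsive list lies highest among those with called genes (median 1.61) and the fibroblast list lowest (−0.60); on unscaled TPM the medians of the oxidative phosphorylation, injury, collagen and endothelium lists turn positive.

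Markers of nephron segments and other cells were read the same way. Proximal tubule markers were higher in 5 of 14 (first segments, median 0.55) and 5 of 10 (last segment, median 0.43; 1.18 without male 3), and lower in 1 and 0. In the first list Hnf4a, Cubn, Slc4a4, Pck1 and Slc22a6 were higher and Gatm, of creatine synthesis, lower (−0.82). Slc5a2, the glucose transporter SGLT2, was at 40.6 to 79.6 against 70.0 to 91.7 (−0.55, adjusted p = 0.182). Acy3 was at 492, 360, 53.9 and 387 scaled TPM in males and 46.1 to 91.1 in females (1.95). Thick limb markers had 1 of 7 higher (Umod 0.52, at whose locus the opposite-strand lncRNA gene Gm44588 was at a mean of 0.43 in males and 23.8 in females) and 3 lower (Ppp1r1a −0.79), distal tubule markers 1 of 7 higher, thin limb markers 1 higher (Aqp1 0.86) and 1 lower of 7. Markers of principal cells (1 of 8), intercalated cells (1 of 9) and podocytes (1 of 7) were lower in single members only: Gata3, Atp6v1g3 and Cdkn1c. On unscaled TPM 0 members of the thin limb, thick limb, distal tubule, principal cell, intercalated cell and podocyte lists were lower.

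Stromal markers were lower in males. Of 10 tested fibroblast, pericyte and smooth muscle markers 6 were lower and 0 higher (median −0.60, −0.17 on unscaled TPM). The summed level of all 11 markers of the list was 9.08 to 11.9 scaled TPM in males and 17.9 to 19.8 in females, without overlap. Acta2, smooth muscle actin, was at 1.41, 1.31, 1.46 and 1.44 against 2.71 to 3.49 (−1.15), Tagln at 2.90 to 3.81 against 5.84 to 7.51 (−0.99) and the proteoglycan Dcn at 0.815 to 1.13 against 1.64 to 2.50 (−0.91). Col1a2 (−0.80) and Col1a1 (−0.60), of fibrillar collagen, passed too, and of 16 collagen and matrix genes 6 were lower (median −0.41, 0.03 on unscaled TPM), while the basement membrane genes Col4a1 and Col4a2 had differences of 0.15 and 0.23. Endothelial markers were lower in 5 of 12 (Flt1, Emcn, Tek, Egfl7 and Eng; median −0.38, 0.04 on unscaled TPM), with Pecam1 and Cdh5 at −0.07 and −0.02. Macrophage markers were lower in 2 of 12 (H2-Eb1 and Fcer1g; median −0.24, 0.23 on unscaled TPM) and of 6 lymphocyte and neutrophil markers 0 passed.

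Blood in the tissue was uneven: the summed level of 6 erythrocyte markers was 68.3 to 396 scaled TPM in males and 20.2 to 62.7 in females, though 0 of the 5 tested passed. Few markers of neighbouring organs passed the filter. The summed level of adipocyte markers was 8.37 to 29.8 scaled TPM in males and 19.2 to 38.6 in females, most of it from Fabp4, a gene also active in endothelium. That of liver markers was 5.72 to 31 in males (5.72 in male 3) and 8.67 to 11.1 in females, with Ttr at 2.45 to 27.6 and 3.71 to 4.98. Of liver markers 4 of 8 were tested, with Alb under the filter and Serpina1c higher (0.76); of adrenal markers 2 of 11, with Akr1b7 lower (−0.97) and Cyp11a1, Cyp11b1 and Th under the filter; of adipocyte markers 3 of 10, of which 0 passed, and Adipoq and Plin1 were under the filter. Of 5 urothelial markers Psca was lower (−0.66). The part of blood, stroma or dissection in the gene differences was not tested.

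Male KlKl 3 carried the least male-typical pattern. For genes called with 1 library left out, differing by at least 1 and at a mean of at least 1 scaled TPM in the higher sex, the place of that library was set on a scale from the mean of the other sex (0) to the mean of its own (1). Male 3 had a median of 0.375 over 200 genes higher in males (quartiles 0.131 and 0.739), and of these 55 lay within the female range and 37 within or beyond the range of the other males. Over 111 genes lower in males its median was 0.686. The other males had medians of 1.04 to 1.14 and 0.889 to 0.912, and the females 0.874 to 1.05 and 0.772 to 1.10. Each library has its own gene set, with 114 to 120 genes higher in males for the other males. Their own-sex mean also includes male 3, so their places and that of male 3 do not share a scale. By gene list, male 3 minus the mean of the other males had a median of −1.60 in the androgen-responsive genes, −1.28 in last-segment markers, −0.70 in organic ion transporters and 0.49 in injury genes, against −0.04 over all tested genes. Its recovered reads (13030829) were the fewest among the males, and its mitochondrial share (11%) was within theirs. Why it differed was not tested.

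**Figure D4:**
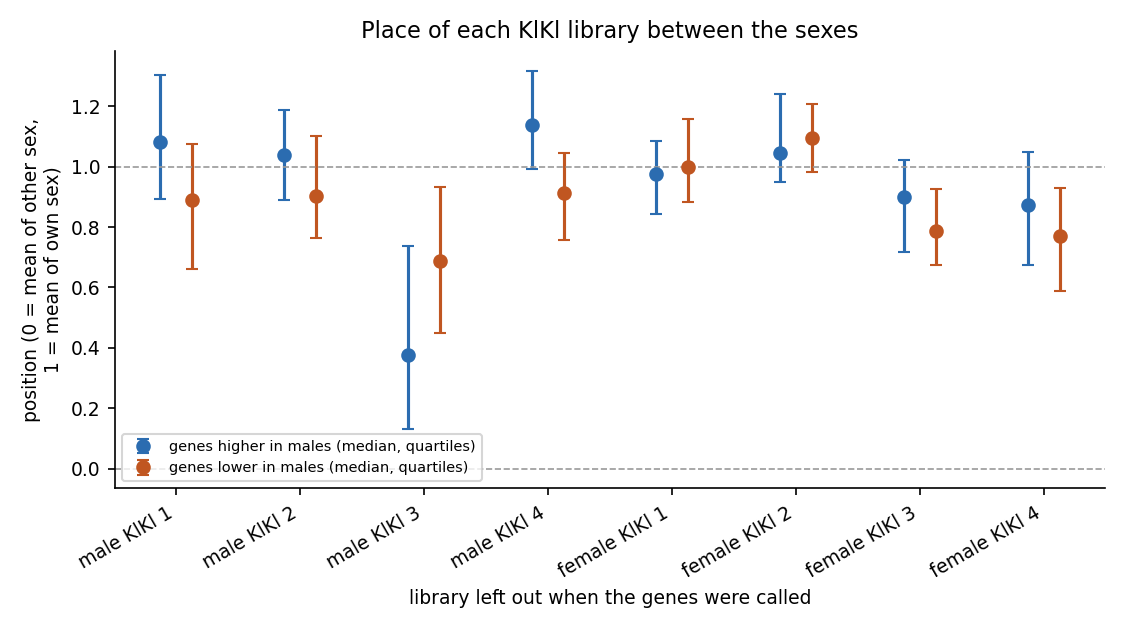
Position of each KlKl library between the sexes (y axis, 0 for the mean of the other sex and 1 for the mean of its own), over genes called without that library, differing by at least 1 and at 1 scaled TPM or more in the higher sex; points are medians and bars quartiles, blue for genes higher and orange for genes lower in males. Male 3 has the lowest median in both sets, at 0.375 and 0.686.

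The same sex comparison in the controls, in other animals but the same 2 numbered sets, called 2079 genes higher (21.5%) and 1746 lower (18%) in males. Of the 2079, 2070 had a positive difference in KlKl kidneys and 1235 (59.4%) passed there, with medians of 0.57 in controls and 0.42 in KlKl. Of the 1746, 1724 were negative and 1047 (60.0%) passed, with medians of −0.62 and −0.48. Seen from the KlKl side, 88.8% of the higher and 85.9% of the lower genes were called in the same direction in controls. The difference between the 2 sex effects passed for 0 of 9689 genes (0%, limma, adjusted p under 0.05), and for 0 by limma voom on recovered reads. No sex difference can therefore be called particular to either genotype. An unadjusted p under 0.05 was reached by 197 genes, fewer than the share of 0.05 that chance alone gives, and by 489 with array weights. That 0 passed does not show the 2 sex effects to be equal.

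The 5 genes with the smallest p of that difference, unnamed gene models left out, did not pass either. Derl3 was the 1 gene called in opposite directions in the 2 genotypes. Mgst1, a microsomal glutathione transferase, was at 3.34 to 4.56 scaled TPM in male and 3.15 to 3.89 in female KlKl kidneys (0.15), against 1.77 to 1.99 and 3.42 to 6.21 in controls (−1.17; adjusted p of the difference 0.359). Slc7a12 was at 0.130 to 0.348 in male and 0.738 to 3.49 in female controls (−2.53), beside 0.14 in KlKl (adjusted p = 0.497). Derl3, of protein quality control, differed by 0.68 in KlKl and −0.71 in controls (adjusted p = 0.497). Derl3 rested on few reads, 12 to 19 in male and 4 to 9 in female KlKl libraries. Pycard, an inflammasome adaptor, differed by −0.35 and −0.97, and the retinol dehydrogenase gene Rdh16f2 by −0.19 and −1.88. In Mgst1, Slc7a12 and Rdh16f2 the male KlKl libraries lay above all male controls.

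**Figure D5:**
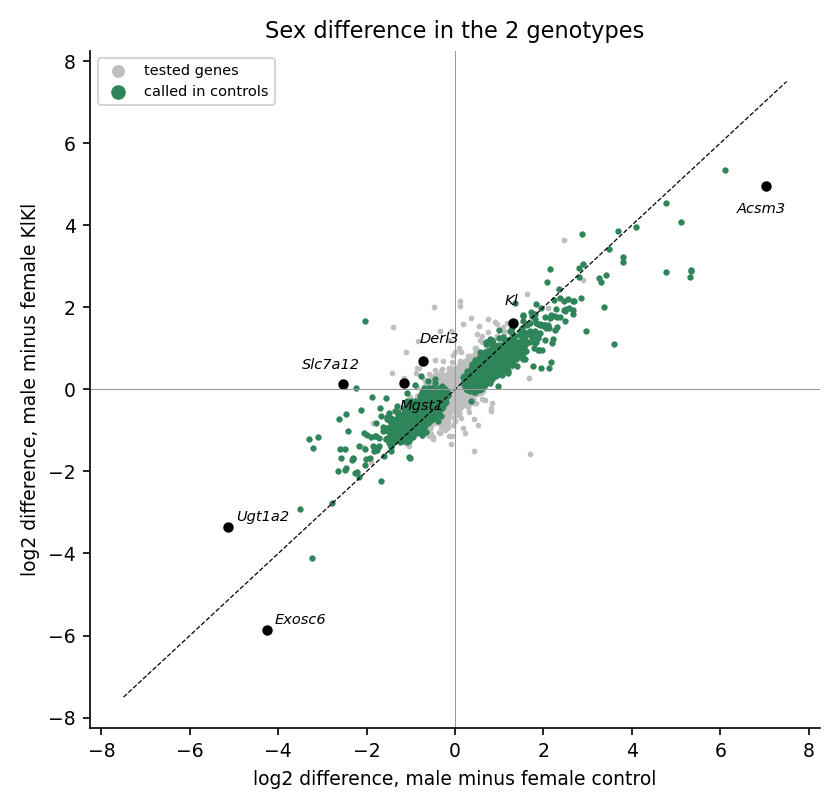
Log2 sex difference of each tested gene in controls (x axis) and in KlKl kidneys (y axis), with genes called in controls in green, 7 genes labelled and a dashed line of equal difference. Of the genes called higher in controls, 2070 of 2079 lie above 0 in KlKl; Slc7a12 and Mgst1 lie near 0 in KlKl.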

How the data were processed

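Gene expression was measured by RNA-seq in 16 kidney libraries, 4 per sex and genotype. The authors deposited 1 table of TPM values per gene, made with Partek on mm39 per the submitters' processing notes. Its aligner, annotation and counting rule were not given in the sources used here. Low values showed that the deposited TPM follow whole reads divided by the genomic span of a gene, introns included, with 0.0001 read added, and 81.2% of values below 20 reads were whole within 0.1 read. The 0 columns of other samples needed no exclusion.

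TPM were divided by a median ratio over autosomal protein-coding genes, filtered (0.25 in at least 4 libraries) and tested as log2(scaled TPM + 0.1) with limma 3.58.1 in R 4.3.3. One fit over all 4 groups and 14165 genes of every biotype gave the sex difference in each genotype and the difference between them, with Benjamini-Hochberg adjustment over all of them and a threshold of 0.05. Every adjusted p is from limma, and a log2 difference understates the change of low genes. Python 3.11.15 with numpy 2.4.6, pandas 2.3.3, scipy 1.17.1 and matplotlib 3.10.9 did the rest. The procedure was tested on simulated data.

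Genes named first are the 14 per direction with the largest difference among those that passed, had a mean of at least 1 scaled TPM in the higher group and did not overlap between the sexes. Further named genes are Kl, up to 4 passing members per gene list, members given to describe a list, and the 5 genes, unnamed models left out, with the smallest p for the difference between genotypes. The members and lists were chosen with earlier results of these data known. Transcript lengths came from GENCODE M21 for 9648 of 9689 genes and promoters from RefSeq (GRCm38.p6). A floor of 3 reads per library stands for a count of 0 and covers counting error only. Replicate libraries differed beyond counting error (chi-square per gene 6.74 to 128). Alternatives were other scalings, filters, pseudocounts and thresholds, voom on recovered reads, array weights, age, name series and replicate number as terms, a transcript-length adjustment chosen after seeing the data, and each library left out. Some genes counted in the totals are not reported here by name.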

Additional observations from a re-analysis of the deposited data

Results flagged for a closer look

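In each named gene, the lowest or highest of the 4 libraries of a sex was compared with the others by its gap to the nearest library over the range of the group. Of 276 such groups 28 had a gap beyond the 95% limit of Dixon's test, where chance gives about 1 in 20. In 2 of them, Rsc1a1 in females and Exosc6 in males, no library held more than 3 reads. Of the other 26, male KlKl 3 accounted for 14 and female KlKl 4 for 7.

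Among others, male KlKl 3 was flagged as the lowest male in Acsm3 (gap over range 0.916), Nat8f2 (0.879), Ces1f (0.971), Ugt3a1 (0.974), Acot12 (0.843), Dhrs4 (0.854), Slc22a6 (0.925), Cyp24a1 (0.918), Kap (0.842) and the pericyte gene Rgs5 (0.996). It was flagged as the highest male in Cbr1 (0.891), Abcc3 (0.87) and Gsta2 (0.835), all lower in males.

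Female KlKl 4 was flagged as the lowest female in Exosc6 (0.841), Vim (0.847), Serping1 (0.853), Tek (0.833) and Psca (0.941). It was flagged as the highest in Cck (0.926) and Kcnj16 (0.88). The gap over range does not give the size of a difference: Vim was at 6.24 scaled TPM in female 4 and 6.87 in the nearest female. Of the remaining values, Gsta5 was lowest in male 4 (0.968), Atp6v1g3 lowest in male 2 (0.969), Acta2 lowest in female 3 (0.889), and Cpt1a lowest in male 1 (0.975) among males and in female 2 (0.866) among females.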

How the results depend on the processing

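The counts depended on several settings. The main fit had 1391 genes higher and 1219 lower in males of 9689 tested. A filter of 1 TPM gave 926 and 915 of the 5774 genes then tested, so its lower counts come with fewer genes tested. The deposited TPM without scaling gave 4914 higher and 137 lower of 9774, array weights 2525 and 2215, and a threshold of 0.01 gave 624 and 482. Leaving out male KlKl 3 and female control 3 together gave 2290 and 1878. In controls, 3825 of 9689 genes were called, 2544 of 5774 with the filter of 1 TPM and 2306 of 9689 at the threshold of 0.01. Leaving out 1 library at a time gave 919 (without female KlKl 2) to 1950 (without female control 3) higher and 736 to 1733 lower, from the same libraries.

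With the replicate block 1221 genes were higher and 1053 lower in KlKl kidneys. Same-numbered male and female KlKl libraries correlated at −0.027 to 0.0495 in their deviations, and 1 of 4 males correlated best with its own number. Same-numbered libraries also share the S number and the first letters (CFK or CFdk) of their library names. Whether the animals were paired in another way cannot be told from these correlations.

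Without scaling, the log2 differences of Pycard (0.11), Rdh16f2 (0.28), Anxa2 (0.013), Atf4 (0.00014), Slc12a1 (0.031) and H2-Eb1 (0.071) turned positive. Slc7a12 turned to −0.0023 with age as a covariate and ranged from −0.058 to 0.32 with 1 library left out, and Slc22a7 from −0.15 to 1.69. Of 3128 values of named genes under the other alternatives 2948 kept direction and call, 135 lost the call, 35 gained it and 7 reversed, and 3 that had not passed changed sign within 1 name series, where no test was made. With 1 library left out, of 2200 values 2051 kept both, 136 lost the call, 9 gained it and 4 reversed. The cause was not tested. Genes with few reads, such as Cyp2j13 and H2bc11, are limited by depth.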
